A study of Glycine max with 23 samples.

Results

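The epidermis, the outermost cell layer of the soybean seed coat, was set against the outer integument, the layer directly beneath it, in seeds of Glycine max whose embryos were at the heart stage. The comparison used the 2 arrays of seed coat epidermis and the 2 arrays of outer integument, 4 of the 23 arrays of the series, and the 37593 soybean probe sets of Affymetrix's Soybean Genome Array, on which short probes are read in 1 colour. Both layers came from plants of the cultivar Asgrow A3237, grown at 22 °C in cycles of 16 h of light and 8 h of dark, and from pods 1.3 to 2.0 cm long. No treatment or genetic change is given in the labels for either layer. Fixation was in ethanol with acetic acid. Paraffin sections of 8 µm were made, and each layer was collected by laser capture, in which a laser cuts chosen cells out of a section. Each capture contributed 2 ng of total RNA to amplification and biotin labelling. The labels call the 2 arrays of a layer biological replicates and tie them to no plant, so p-values measure the spread between these samples only, part of which may be technical. The other captured samples were the embryo proper, suspensor, endosperm, endothelium, hilum and inner integument. Together with both layers they form 8 compartments with 19 arrays, and these supplied the estimate of spread. Whole seeds and leaves had 2 arrays each and entered no test.

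The soybean seed coat grows from the integuments of the ovule and is maternal tissue. Its epidermis later becomes the palisade of thick-walled cells that makes the mature coat hard and, in pigmented cultivars, coloured. The outer integument gives rise to the hourglass cells and the parenchyma through which sucrose and amino acids leave the maternal plant for the embryo. Flavonoids are built from phenylalanine. The phenylpropanoid enzymes make an activated coumarate, chalcone synthase joins it to malonyl units, and later enzymes give flavonols, anthocyanins and proanthocyanidins, the tannin polymers of seed coats. Soyasaponins are triterpenoid glycosides of legumes, made from a cyclised squalene derivative that is oxidised and then decorated with sugars.

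Background was taken for each array as the 95th percentile of the signal of probe sets for pathogens of soybean, and it lay at 161.5 and 167 in the epidermis, against 151.5 and 138.5 in the outer integument. In all, 19063 and 19092 soybean probe sets were above it in the epidermis, against 19553 and 19725 in the outer integument. The replicate arrays correlated at 0.929 for the epidermis and 0.956 for the outer integument, over the tested probe sets on the log2 scale, while arrays of different layers correlated at 0.835 to 0.851. The mean signal of the added bacterial hybridization controls was 17516 to 18985 in the epidermis and 12252 to 15284 in the outer integument, and the ratio of 3' to 5' actin signal, a sign of RNA length, was 3.14 and 2.76 in the epidermis and 2.48 and 6.69 in the outer integument. The same ratio for ubiquitin was 3.85 and 16.6 in the epidermis and 61.5 and 5.16 in the outer integument, so actin and ubiquitin put the 2 outer integument arrays in opposite order. Rescaling to the controls was tried as an alternative, and the part of RNA length in the results was not tested. Markers of other tissues were followed in the same arrays. LEC1-A and WRI1B, transcription factors of the embryo, were above background on none of the 4 arrays, with summed signals of 146.0 and 168 in the epidermis, against 143 and 230.4 in the outer integument and 5445 to 6915 in the embryo proper. Seed maturation proteins, 29 genes also planned as embryo markers, were less clear. They summed to 35454 and 32866 in the epidermis, 37071 and 38463 in the outer integument and 45139 to 51427 in the embryo proper. Of these genes, 4 were above background on both epidermis arrays and 6 on both outer integument arrays. PM37 alone averaged 27162 in the epidermis, 27187 in the outer integument and 23654 in the embryo proper. The 8 genes for sieve element occlusion proteins, which mark phloem, summed to 741 and 697 in the epidermis, against 1611 and 1378 in the outer integument. None of them was above background on both epidermis arrays and 2 were on both outer integument arrays. The part of such cells in the results was not tested.

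Of the annotated genes that could check the captured layers, HPS, the hydrophobic protein of the seed surface, known to be made in the pod wall, had signals of 39.1 and 286 in the epidermis, against 33.0 and 27.3 in the outer integument, and it was too dim to be tested. Ep, the peroxidase of the hourglass cells of later seed coats, had 263 and 129 in epidermis, against 18.6 and 13.9 in outer integument. It was not called (log2 fold change 2.65 ± 0.93, adjusted p = 0.14). No gene with a symbol of the INO, YABBY, ATML1 or GL2 type, whose relatives mark these layers in Arabidopsis, was in the annotation used here, so the captured layers were checked by no marker that defines them at this stage.

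The 2 layers differed at 1054 of 22742 tested probe sets, 4.63%. In captures of many cells, fewer cells of a type and less RNA per cell cannot be told apart. A probe set entered the test if all arrays of 1 or more captured compartments exceeded background, and was called at a Benjamini-Hochberg adjusted p under 0.05 in limma with a difference of 2-fold or more on the scale log2(signal + 16). Higher in the epidermis were 510 (2.24%) and lower were 544 (2.39%), with no overlap between the layers at any called probe set. Without regard to the test, 27.5% of the tested probe sets had both epidermis arrays above both outer integument arrays, and 26.7% had both below. The median called change was 3.58 on the log2 scale among those higher and -2.96 among those lower. Over the whole set of tested probe sets the median change was 0.01. Dropping the fold requirement gave 1056 calls (4.64%). By the fitted change, 207 probe sets were at least 16-fold higher in the epidermis and 124 at least 16-fold lower. In 348 of the calls, 218 of them higher in the epidermis, the dimmer layer was above background on neither array. In those the fitted change is no measure of size, so the medians and the 16-fold counts describe the fit only. With 2 arrays a layer, leaving out 1 of the 4 arrays left 510 calls without epidermis replicate 1, 607 without epidermis replicate 2, 494 without outer integument replicate 1 and 484 without outer integument replicate 2. Calls of single genes that were lost in this way are named with the results below.

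**Figure D1:**
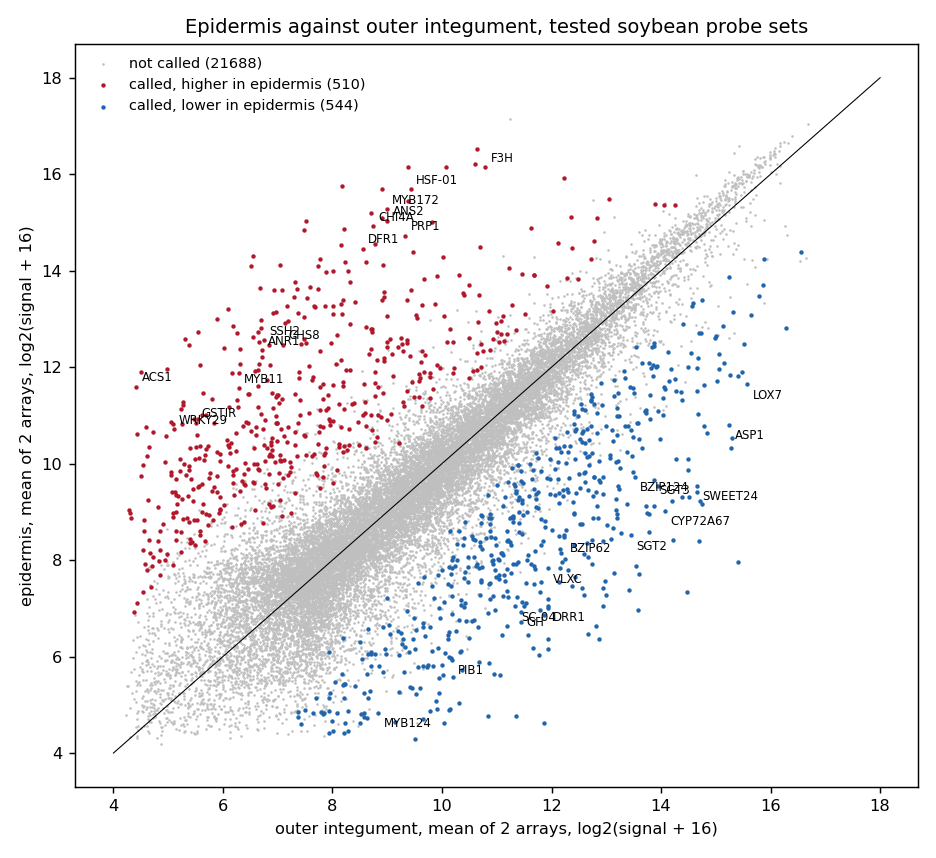
Mean level in the epidermis (vertical axis) against that in the outer integument (horizontal axis), both as log2(signal + 16) averaged over 2 arrays, for each of the 22742 tested probe sets. Red points are the 510 called higher in epidermis, blue points the 544 called lower and grey points those not called; the line marks equal levels and labels mark the 14 genes a direction whose log2 fold change was largest.

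Of 772 genes with a symbol, each read through its brightest probe set, 73 were called (9.46%), 33 of them higher in the epidermis (4.27%) and 40 lower (5.18%). The layers did not overlap, with the epidermis higher, in 27.3% of these genes, and with the epidermis lower in 35.1%. The counts for gene groups below are read against the shares called. The group with the most genes higher in the epidermis was that of flavonoid synthesis. Of its 15 genes 8 were higher, none was lower, and the median log2 fold change was 3.27, against -0.07 over all 772 genes. Of the 9 genes of the preceding phenylpropanoid steps and lignin synthesis 3 were higher and none lower (median -0.13).

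In the entry steps, PAL2.1, a phenylalanine ammonia-lyase, had signals of 12614 and 13767 in epidermis, against 12501 and 16875 in outer integument, and the layers overlapped (log2 fold change -0.14 ± 0.40, adjusted p = 0.96). The next enzyme, cinnamate 4-hydroxylase (C4H), had 5656 and 6127 in epidermis, against 495 and 488 in outer integument (11.6-fold higher, log2 fold change 3.54 ± 0.54, adjusted p = 0.00032). Both epidermis arrays were far above the others, though a second and dimmer probe set of C4H was not called (log2 fold change 1.69, adjusted p = 0.39). Coumarate:CoA ligase activates the coumarate that C4H helps to make. Its gene 4CL3 had 2981 and 1009 in epidermis, against 54.8 and 79.1 in outer integument (at least 10.9-fold higher, log2 fold change 4.42 ± 0.69, adjusted p = 0.00043), and 4CL4 had 447 and 1487 in epidermis, against 139.6 and 105 in outer integument (at least 5.19-fold higher, log2 fold change 2.61 ± 0.73, adjusted p = 0.045). For both genes the outer integument was below background on both arrays, and the epidermis arrays differed clearly from each other. The other ligase genes, 4CL, 4CL1 and 4CL2, and CCR and CYP98A2 of lignin synthesis were not called, with log2 fold changes of -2.10 to 0.25.

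Chalcone synthase makes the first flavonoid, and its gene CHS8 had 5262 and 6030.5 in epidermis, against 220.3 and 64.1 in outer integument (41.1-fold higher, log2 fold change 5.36 ± 0.81, adjusted p = 0.00033). The outer integument was above background on 1 of its 2 arrays. Chalcone isomerase closes the central ring. CHI4A had 27159 and 35262 in epidermis, against 388 and 439 in outer integument (72.2-fold higher, log2 fold change 6.17 ± 0.82, adjusted p = 8.8e-05). CHI2-A had 7343 and 5653 in epidermis, against 237 and 277 in outer integument (23.7-fold higher, log2 fold change 4.57 ± 0.51, adjusted p = 1.4e-05). Flavanone 3-hydroxylase (F3H) had the brightest signal of the group, 79724 and 65702 in epidermis, against 1905 and 1623 in outer integument (40.8-fold higher, log2 fold change 5.35 ± 1.11, adjusted p = 0.0053), and its second probe set was called too, with a log2 fold change of 6.98.

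Dihydroflavonol reductase turns the pathway towards anthocyanins and tannins. Its gene DFR1 had 23469 and 21477 in epidermis, against 273 and 473 in outer integument (59.8-fold higher, log2 fold change 5.90 ± 0.92, adjusted p = 0.00043). Anthocyanidin synthase gene ANS2 had 32447 and 34593 in epidermis, against 417 and 589.9 in outer integument (65.5-fold higher, log2 fold change 6.03 ± 0.79, adjusted p = 7.1e-05). Anthocyanidin reductase, which makes the epicatechin units of proanthocyanidins, was read through ANR1. It had 4191 and 6442 in epidermis, against 59.6 and 131 in outer integument (at least 32.4-fold higher, log2 fold change 5.63 ± 1.05, adjusted p = 0.0023), and neither outer integument array was above background. UGT78K1, a glucosyltransferase of anthocyanidins, was dimmer, with 308 and 753 in epidermis, against 77.1 and 12.8 in outer integument (at least 3.10-fold higher, log2 fold change 3.27 ± 0.63, adjusted p = 0.0029). Like all called genes, these 4 had no overlap between the layers.

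The 7 flavonoid genes that were not called had log2 fold changes of -0.03 to 2.83. FLS1, a flavonol synthase, had 588 and 574 in epidermis, against 99.6 and 84.3 in outer integument (adjusted p = 0.10). DFR2 had 489.5 and 337 in epidermis, against 113 and 11.3 in outer integument (adjusted p = 0.17), and LAR1, leucoanthocyanidin reductase, had 428 and 52.9 in epidermis, against 67.0 and 3.8 in outer integument (adjusted p = 0.32). Tannins also form in the endothelium, the inmost layer of the seed coat, whose markers overlap with this group. ANR1, LAR1, ANS2, DFR1 and DFR2 summed to 61024 and 62902 in the epidermis, against 929 and 1209 in the outer integument, 2350.0 to 19735 in the endothelium itself and 40816 to 55616 in the hilum. The epidermis sums were thus above every endothelium array. With 1 array left out, calls ended for F3H without epidermis replicate 1 or outer integument replicate 2 (adjusted p = 0.060 to 0.063), 4CL4 without epidermis replicate 2 or either outer integument replicate (adjusted p = 0.17 to 0.47, log2 fold change 1.76 to 3.45 over the 4 left-out arrays) and UGT78K1 without epidermis replicate 2 or outer integument replicate 2 (adjusted p = 0.077 to 0.099, log2 fold change 2.42 to 4.12 over the 4 left-out arrays). Without 1 outer integument array the log2 fold change of CHS8 was 4.58 or 6.14, and without 1 epidermis array that of 4CL3 was 3.64 or 5.19. Under scaling to the hybridization controls 5 of the 8 flavonoid genes and 1 of the 3 phenylpropanoid genes remained called.

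**Figure D2:**
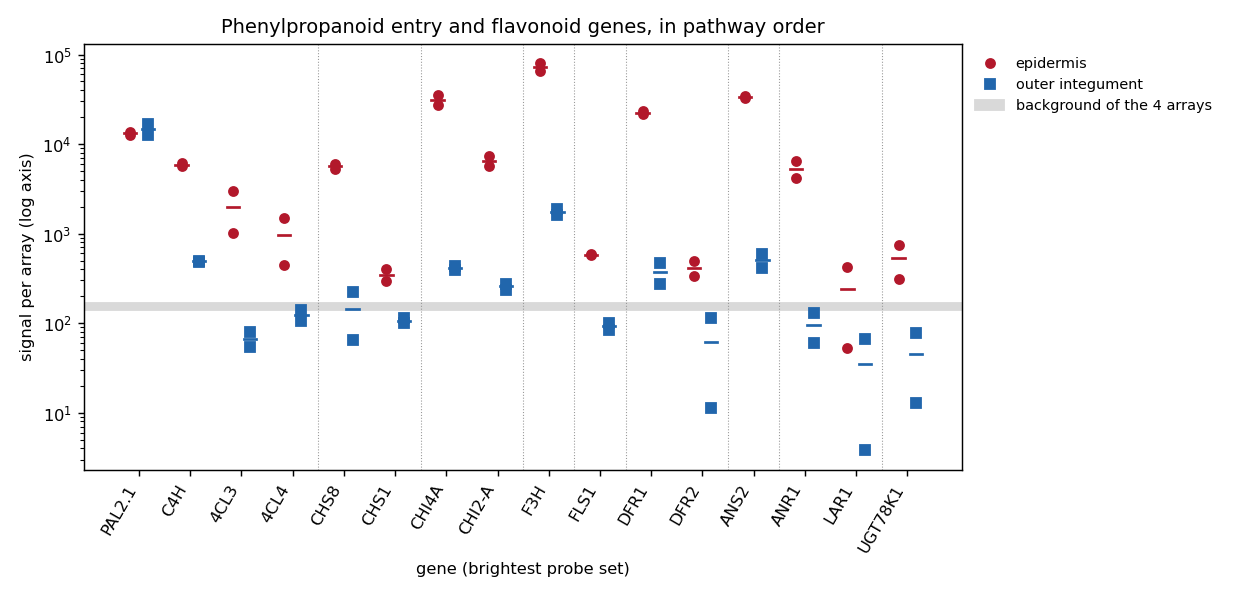
Signal on each of the 4 arrays (vertical log axis) for 16 phenylpropanoid and flavonoid genes in pathway order, with epidermis arrays as red circles, outer integument arrays as blue squares, short lines for the mean of 2 arrays and a grey band for the background of the 4 arrays. PAL2.1 lies at like levels in both layers, whereas F3H, ANS2, DFR1 and CHI4A lie at 21477 or more in both epidermis arrays and at 1905 or less in both outer integument arrays.

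Isoflavonoids branch from the same chalcones and serve in defence and nodulation. Of the 11 tested genes of this branch none was called in either direction (background 9.46%), and their median log2 fold change was -0.14. IFS1 and IFS2, the isoflavone synthases, and the chalcone reductases CHR1, CHR4 and CHR5 had log2 fold changes of -0.83 to 0.75. IFR2, named for isoflavone reductase, had 9179.9 and 8571 in epidermis, against 9082 and 9584 in outer integument (log2 fold change -0.07 ± 0.55, adjusted p = 0.99). HIDH, the dehydratase that completes the isoflavone skeleton, had 9390.5 and 9112 in epidermis, against 985 and 1498 in outer integument (log2 fold change 2.91 ± 1.02, adjusted p = 0.14). Its arrays did not overlap between the layers, and a dimmer probe set of HIDH was called (2.44, adjusted p = 0.015) while 2 others were not (1.21 and -0.39).

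GASA genes encode small cysteine-rich peptides of the cell wall, many of them regulated by gibberellin. Of 13 tested, 5 were higher in the epidermis and none lower (background 4.27% and 5.18%), with a median log2 fold change of 0.67. GASA6 was the brightest, with 66850.0 and 56922 in epidermis, against 3644 and 6191 in outer integument (12.9-fold higher, log2 fold change 3.69 ± 0.92, adjusted p = 0.021). GASA33 had 22687 and 23474 in epidermis, against 1271 and 2137 in outer integument (13.9-fold higher, log2 fold change 3.79 ± 0.75, adjusted p = 0.0038). For both, each epidermis array stood far above each outer integument array. GASA9 had 8615 and 8798 in epidermis, against 668 and 773 in outer integument (11.9-fold higher, log2 fold change 3.57 ± 0.49, adjusted p = 0.00011). GASA14 had 7809.9 and 6492 in epidermis, against 358 and 453 in outer integument (17.1-fold higher, log2 fold change 4.09 ± 0.45, adjusted p = 1.3e-05), and its 2 other probe sets were called in the same direction. GASA32 was dimmer, at 398 and 526 in epidermis, against 9.4 and 29.9 in outer integument (at least 2.94-fold higher, log2 fold change 3.79 ± 0.63, adjusted p = 0.00073). Its probe set bears the same cluster number in its ID as the one that gave GASA14, so these 2 of the 5 calls may read shared transcripts. The family was not uniform. GASA27 was bright in both layers, with 33117 and 34352 in epidermis, against 29227 and 23656 in outer integument (adjusted p = 0.93), and GASA3 had 1271 and 1243 in epidermis, against 5163 and 3761 in outer integument (log2 fold change -1.80 ± 0.65, adjusted p = 0.15). With 1 array left out, calls ended for GASA6 without any 1 of the 4 arrays (adjusted p = 0.085 to 0.21) and GASA33 without outer integument replicate 1 (adjusted p = 0.074). Under scaling to the hybridization controls none of the 5 stayed called.

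Of 13 cell wall genes 11 were not called, 1 was higher in the epidermis and 1 lower, about as many as the background (4.27% and 5.18%) gives. Both called genes encode proline-rich wall proteins. PRP1 had 34309 and 21415 in epidermis, against 784 and 497 in outer integument (42.3-fold higher, log2 fold change 5.40 ± 1.04, adjusted p = 0.0030), whereas SBPRP had 4324 and 7548 in epidermis, against 43202 and 50126 in outer integument (8.13-fold lower, log2 fold change -3.02 ± 0.52, adjusted p = 0.0011). The 2 genes differed in opposite directions. The call of PRP1 was lost without epidermis replicate 1 (adjusted p = 0.053), and that of SBPRP under scaling to the hybridization controls (adjusted p = 0.20).

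ACS1, a gene for ACC synthase, the rate-limiting enzyme of ethylene synthesis, had 3695 and 2576 in epidermis, against 4.2 and 6.7 in outer integument (at least 19.3-fold higher, log2 fold change 7.18 ± 0.86, adjusted p = 2.9e-05), and a second probe set was called at 4.35. Of 3 tested ethylene genes it alone was called (background 9.46%). SSH2, a Sec14-like lipid transfer protein gene, had 4703 and 7695 in epidermis, against 43.0 and 181 in outer integument (55.9-fold higher, log2 fold change 5.81 ± 0.85, adjusted p = 0.00024). The outer integument was above background on 1 array. GSTIR was the only gene called of 19 for glutathione S-transferases (background 9.46%). It had 2044 and 1640.5 in epidermis, against 9.3 and 65.9 in outer integument (at least 11.5-fold higher, log2 fold change 5.34 ± 0.79, adjusted p = 0.00026), while another probe set of GSTIR was not called (0.97, adjusted p = 0.81). CAMK1, named for a calcium-dependent kinase, had 996 and 456 in epidermis, against 78.7 and 16.6 in outer integument (at least 4.30-fold higher, log2 fold change 3.64 ± 0.75, adjusted p = 0.0053). The 16 genes for calcium-dependent and cytosolic kinases held no other call (background 9.46%). The call of CAMK1 was lost without epidermis replicate 1 or outer integument replicate 2 (adjusted p = 0.11 to 0.14, log2 fold change 2.87 to 4.41 over the 4 left-out arrays). With 1 outer integument array left out the log2 fold change ran from 4.93 to 6.68 for SSH2 and from 4.50 to 6.19 for GSTIR. Scaling to the hybridization controls ended the call of CAMK1 (adjusted p = 0.22), and those of ACS1, SSH2 and GSTIR remained.

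Among genes for transcription factors, 5 of 42 MYB genes were higher in the epidermis and 2 lower (background 4.27% and 5.18%), with a median log2 fold change of 0.003. MYB172 had 45084 and 34671 in epidermis, against 356 and 676 in outer integument (78.0-fold higher, log2 fold change 6.29 ± 1.02, adjusted p = 0.00064), and a second probe set was called at 7.37 while the other was not (2.58, adjusted p = 0.058). MYB11 had 2547 and 3557 in epidermis, against 23.8 and 138 in outer integument (at least 18.8-fold higher, log2 fold change 5.27 ± 0.83, adjusted p = 0.00045). The 3 dimmer members, below background on both outer integument arrays, were MYB79, MYB56 and MYB60. MYB79 had 554 and 790.5 in epidermis, against 16.9 and 18.5 in outer integument (at least 4.21-fold higher), MYB56 had 327 and 421 in epidermis, against 4.5 and 44.5 in outer integument (at least 2.41-fold higher), and MYB60 had 288 and 342 in epidermis, against 15.1 and 43.7 in outer integument (at least 2.05-fold higher). Another probe set of MYB60 was not called (2.56, adjusted p = 0.20). On the other side MYB138 had 969 and 795 in epidermis, against 6511 and 5841 in outer integument (6.92-fold lower, log2 fold change -2.79 ± 0.59, adjusted p = 0.0062). MYB124 had 21.7 and 5.7 in epidermis, against 529 and 364 in outer integument (at least 2.53-fold lower, log2 fold change -3.99 ± 0.80, adjusted p = 0.0041). Calls were lost, with 1 array left out, for MYB79 without any 1 of the 4 arrays (adjusted p = 0.082 to 0.12), MYB56 without either epidermis replicate or outer integument replicate 1 (adjusted p = 0.11 to 0.31, log2 fold change 2.68 to 4.24 over the 4 left-out arrays), MYB60 without any 1 of the 4 arrays (adjusted p = 0.11 to 0.36), MYB138 without epidermis replicate 2 or either outer integument replicate (adjusted p = 0.054 to 0.075) and MYB124 without epidermis replicate 2 or outer integument replicate 1 (adjusted p = 0.064 to 0.070). The call of MYB11 held, but its log2 fold change was 4.30 or 6.25 without 1 outer integument array. Scaling to the hybridization controls left the calls of MYB172, MYB11 and MYB124 and ended those of MYB79, MYB56, MYB60 and MYB138 (adjusted p = 0.075 to 0.62).

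The 10 tested heat shock factor genes held 1 call, that of HSF-01 (background 9.46%). It had 58024 and 47832 in epidermis, against 738 and 612 in outer integument (76.6-fold higher, log2 fold change 6.26 ± 1.05, adjusted p = 0.00082). Its other probe set, dim in both layers though it averaged 3127 in the suspensor, was not called (0.26, adjusted p = 0.95). WRKY genes, named for a conserved peptide of plant-specific regulators, gave 2 higher and 1 lower of 32, about as many as the background (4.27% and 5.18%) gives. WRKY29 had 1702 and 1620.2 in epidermis, against 38.8 and 5.4 in outer integument (at least 10.4-fold higher, log2 fold change 5.61 ± 0.84, adjusted p = 0.00027), with a second probe set called at 4.40. WRKY37 had 1008 and 912 in epidermis, against 152 and 121 in outer integument (at least 6.06-fold higher, log2 fold change 2.68 ± 0.75, adjusted p = 0.044). The lower one, WRKY22, was moderately bright in both layers, at 4317 and 5892 in epidermis, against 17056 and 18960.2 in outer integument (3.56-fold lower, log2 fold change -1.83 ± 0.44, adjusted p = 0.016). Its other 3 probe sets were not called (-2.17 to -0.24). Of genes for NF-Y and CONSTANS-like factors, NF-YA05 had 911 and 803 in epidermis, against 263 and 142 in outer integument (4.15-fold higher, log2 fold change 2.05 ± 0.44, adjusted p = 0.0066), and COL10 had 1920.4 and 3122 in epidermis, against 602 and 612 in outer integument (3.96-fold higher, log2 fold change 1.99 ± 0.51, adjusted p = 0.026). With 1 array left out, calls ended for WRKY37 without any 1 of the 4 arrays (adjusted p = 0.17 to 0.27), WRKY22 without any 1 of the 4 arrays (adjusted p = 0.054 to 0.19), NF-YA05 without epidermis replicate 1 or outer integument replicate 2 (adjusted p = 0.078 to 0.15) and COL10 without any 1 of the 4 arrays (adjusted p = 0.064 to 0.26). Without 1 outer integument array the log2 fold change of WRKY29 was 4.93 or 6.29. The calls of HSF-01 and WRKY29 remained under scaling to the hybridization controls, and those lost were WRKY37, WRKY22, NF-YA05 and COL10 (adjusted p = 0.76 to 1.0).

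bZIP genes had 1 of 45 higher in the epidermis and 5 lower (background 4.27% and 5.18%) and a median log2 fold change of -0.30. The largest negative change of the family, -4.91, belonged to a member that was not called. BZIP48 was the one higher, with 957 and 1222 in epidermis, against 3.9 and 53.7 in outer integument (at least 6.82-fold higher, log2 fold change 4.88 ± 0.80, adjusted p = 0.00068). BZIP124 had 781 and 886 in epidermis, against 12185 and 11307 in outer integument (13.9-fold lower, log2 fold change -3.79 ± 0.71, adjusted p = 0.0023), BZIP125 had 362 and 337 in epidermis, against 5115 and 4443 in outer integument (13.1-fold lower, log2 fold change -3.71 ± 0.87, adjusted p = 0.014) and BZIP62 had 289.8 and 394 in epidermis, against 5869.7 and 3932 in outer integument (13.6-fold lower, log2 fold change -3.77 ± 0.85, adjusted p = 0.011). Of 2 other probe sets of BZIP62, 1 was called (-3.36) and 1 was not (-1.22, adjusted p = 0.69). By their brightest probe sets all 3 genes were above background in both layers. BZIP126 had 4116 and 3821 in epidermis, against 18560.1 and 18731 in outer integument (4.69-fold lower, log2 fold change -2.23 ± 0.53, adjusted p = 0.015), and BZIP68 had 2271 and 2094 in epidermis, against 5866 and 5009 in outer integument (2.47-fold lower, log2 fold change -1.31 ± 0.29, adjusted p = 0.010). NAC genes, another plant-specific family, had 2 of 8 lower and none higher (background 5.18% and 4.27%). NAC34 had 223 and 12.3 in epidermis, against 874 and 549 in outer integument (8.61-fold lower, log2 fold change -3.11 ± 0.83, adjusted p = 0.034), and NAC12 had 6.0 and 5.8 in epidermis, against 384 and 149.8 in outer integument (at least 1.43-fold lower, log2 fold change -3.55 ± 0.85, adjusted p = 0.016). Both genes were dim, and NAC34 was above background on 1 epidermis array. No gene was called among 9 AP2 and ERF genes, 6 MADS genes or 3 homeobox genes (background 9.46%). The largest changes there were those of ERF5 (-1.66 ± 1.02), AP1A (-2.20 ± 0.88) and HDL57 (-1.38 ± 0.74). With a single array left out, bZIP and NAC calls ended for BZIP125 without any 1 of the 4 arrays (adjusted p = 0.096 to 0.12), BZIP126 without any 1 of the 4 arrays (adjusted p = 0.099 to 0.12), BZIP62 without any 1 of the 4 arrays (adjusted p = 0.056 to 0.13), BZIP68 without any 1 of the 4 arrays (adjusted p = 0.060 to 0.14), NAC34 without epidermis replicate 2 or either outer integument replicate (adjusted p = 0.13 to 0.53, log2 fold change -4.65 to -1.57 over the 4 left-out arrays) and NAC12 without either epidermis replicate or outer integument replicate 1 (adjusted p = 0.10 to 0.25, log2 fold change -4.19 to -2.92 over the 4 left-out arrays). The log2 fold change of BZIP48 was 3.98 or 5.79 without 1 outer integument array. Calls that also ended under scaling to the hybridization controls were those of BZIP62, BZIP126, BZIP68 and NAC34 (adjusted p = 0.11 to 1.0).

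Soyasaponin and triterpenoid synthesis had the lowest median change of the groups with 5 or more tested genes. Of its 5 genes 4 were lower in the epidermis and none higher (background 5.18% and 4.27%), all 5 had negative changes, and the median log2 fold change was -4.20. AMS1, the beta-amyrin synthase that forms the triterpenoid ring system, had 177 and 109 in epidermis, against 1696 and 1600.3 in outer integument (10.7-fold lower, log2 fold change -3.42 ± 0.79, adjusted p = 0.013). One epidermis array was just above background. CYP93E1, a cytochrome P450 that hydroxylates the amyrin, had 553 and 1593 in epidermis, against 5262 and 3760.3 in outer integument and was not called (log2 fold change -2.22 ± 0.72, adjusted p = 0.098). CYP72A67 belongs to a P450 family with triterpenoid oxidases in legumes. It had 653 and 391 in epidermis, against 17674 and 16784 in outer integument (33.1-fold lower, log2 fold change -5.05 ± 0.69, adjusted p = 0.00012), although its other, dim probe set was not called (-1.68, adjusted p = 0.56). The sugar transferases SGT2 and SGT3 attach the galactose and the rhamnose of the soyasaponin sugar chain. SGT2 had 378 and 325 in epidermis, against 12617 and 9947 in outer integument (30.6-fold lower, log2 fold change -4.93 ± 0.78, adjusted p = 0.00050), and its second probe set was called at -4.75. SGT3 had 698 and 911 in epidermis, against 16489 and 13576 in outer integument (18.4-fold lower, log2 fold change -4.20 ± 0.66, adjusted p = 0.00043). In each of the 5 genes both outer integument arrays exceeded both epidermis arrays. The same order held in 35.1% of the 772 genes with a symbol and at every probe set called lower. The call of AMS1 was lost without any 1 of the 4 arrays (adjusted p = 0.058 to 0.12), and under scaling to the hybridization controls all 4 calls remained. AMS1 joined the group after its values were seen, and only with it did the group have the 5 tested genes needed for the ranking above.

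Among the captured compartments SGT2, CYP72A67 and AMS1 averaged most in the outer integument. SGT2 averaged 11282 ± 1888 in the outer integument (SD, n = 2) and at most 982 in any other captured compartment, CYP72A67 17229 ± 629 (SD, n = 2) and at most 1955, and AMS1 1648 ± 67.4 (SD, n = 2) and at most 252. Leaf means lay above those of the outer integument for all 3 genes, at 16816 ± 1017 for SGT2, 19586 ± 737 for CYP72A67 and 8044 ± 1249 for AMS1 (SD, n = 2 each).

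Lipoxygenases oxidise polyunsaturated fatty acids, and allene oxide cyclase carries 1 of the products towards jasmonate. Of 16 tested genes of this group 4 were lower in the epidermis and none higher (background 5.18% and 4.27%), with a median log2 fold change of -1.08. LOX7 had 2839.7 and 3568 in epidermis, against 49569 and 47967 in outer integument (15.2-fold lower, log2 fold change -3.93 ± 0.64, adjusted p = 0.00068), and its 3 other probe sets were called at -5.08 to -4.96. The vegetative lipoxygenases VLXB and VLXC are known as storage proteins of soybean leaves. VLXB had 3166 and 2024 in epidermis, against 23477 and 19481 in outer integument (8.40-fold lower, log2 fold change -3.07 ± 0.55, adjusted p = 0.0015), and VLXC had 172 and 259 in epidermis, against 4336 and 3503 in outer integument (17.2-fold lower, log2 fold change -4.10 ± 0.90, adjusted p = 0.0087). Allene oxide cyclase gene AOC3 had 3466 and 3728 in epidermis, against 15518 and 14126 in outer integument (4.10-fold lower, log2 fold change -2.04 ± 0.38, adjusted p = 0.0024), while another probe set of AOC3 was not called (-1.72, adjusted p = 0.17). LOX9, the brightest of the group in both layers, had 28341 and 26576 in epidermis, against 78654 and 81771 in outer integument and was not called (log2 fold change -1.55 ± 0.94, adjusted p = 0.58). COI1, the jasmonate receptor, had 5192 and 4978 in epidermis, against 9581 and 8167 in outer integument (adjusted p = 0.46), and AOS1 and AOS2, allene oxide synthases, had changes of 0.79 and 1.13, opposite in sign to AOC3 and not called. The allene oxide synthases act between both enzymes. The call of VLXC was lost without epidermis replicate 1 or either outer integument replicate (adjusted p = 0.065 to 0.10). Under scaling to the hybridization controls 1 of the 4 calls remained, that of VLXC, and LOX7 missed the threshold narrowly (adjusted p = 0.052).

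Granule-bound starch synthase and inositol phosphate synthase were also on the outer integument side. Of 10 genes of starch and inositol phosphate metabolism 3 were lower in the epidermis and none higher (background 5.18% and 4.27%), with a median log2 fold change of -1.56. This list was put together after values were seen. GBSSIa, which makes amylose, had 1832 and 2543 in epidermis, against 14304 and 17413 in outer integument (7.26-fold lower, log2 fold change -2.86 ± 0.39, adjusted p = 0.00010), while another probe set of it was not called (-0.79, adjusted p = 0.90). MIPS and MIPS4 encode myo-inositol-3-phosphate synthases, the first step to inositol and phytate. MIPS had 449.6 and 348 in epidermis, against 3476 and 4066 in outer integument (9.17-fold lower, log2 fold change -3.20 ± 0.87, adjusted p = 0.037), and MIPS4 had 188 and 153 in epidermis, against 1626 and 2147 in outer integument (10.2-fold lower, log2 fold change -3.35 ± 0.48, adjusted p = 0.00021). A second probe set of MIPS was not called (-2.17, adjusted p = 0.078), and MIPS4 was above background on 1 of the 2 epidermis arrays. The probe sets of these 2 genes bear the same cluster number in their IDs, so they may share transcripts. The call of MIPS was lost without any 1 of the 4 arrays (adjusted p = 0.15 to 0.23). None of the 3 stayed called under scaling to the hybridization controls.

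SWEET24, of the family of sugar exporters, had the largest fold lower in the epidermis of the genes with a symbol above background on all 4 arrays, at 624 and 847 in epidermis, against 27593 and 24084 in outer integument (34.7-fold lower, log2 fold change -5.12 ± 0.91, adjusted p = 0.0015). It was the only call among 11 genes for sugar transport and invertases (background 9.46%). Its level was higher still in the inner integument, 62069.6 ± 16171 (SD, n = 2). Aquaporins conduct water and small solutes, and 5 of 19 were lower in the epidermis and 1 higher (background 5.18% and 4.27%), with a median log2 fold change of -0.77. PIP2-6 had 6445 and 1969 in epidermis, against 43826 and 43259.7 in outer integument (12.2-fold lower, log2 fold change -3.60 ± 0.62, adjusted p = 0.0011), and 2 of its 4 other probe sets were called in the same direction (-2.79 and -2.36). PIP2-9 had 394 and 1038 in epidermis, against 7146 and 8599 in outer integument (11.9-fold lower, log2 fold change -3.58 ± 0.67, adjusted p = 0.0024), PIP2-2 had 379 and 1190.5 in epidermis, against 2623 and 2577 in outer integument (3.79-fold lower, log2 fold change -1.92 ± 0.44, adjusted p = 0.012) and PIP1-10 had 5332 and 5774 in epidermis, against 14093 and 15868 in outer integument (2.69-fold lower, log2 fold change -1.43 ± 0.38, adjusted p = 0.035). In all 3 the epidermis was well above background, and another probe set of PIP1-10 was not called (-1.25, adjusted p = 0.16). N-26 encodes nodulin-26, the aquaporin of the membrane around the nodule symbiont, and it had 40.5 and 134 in epidermis, against 982 and 1493 in outer integument (at least 6.82-fold lower, log2 fold change -3.74 ± 0.63, adjusted p = 0.00082). Another gene of the family, NIP1-8, had 1346 and 1925 in epidermis, against 35.4 and 147 in outer integument (17.8-fold higher, log2 fold change 4.15 ± 0.69, adjusted p = 0.00081), with 1 outer integument array below background.

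Several bright aquaporin genes were not called. PIP1-7 had 48469 and 38979 in epidermis, against 52084 and 49329.7 in outer integument (adjusted p = 0.94), PIP1-6 had 33274 and 23579 in epidermis, against 21598 and 28077 in outer integument (adjusted p = 0.97), and PIP2-4 had 72760.5 and 57942 in epidermis, against 25270.0 and 25967 in outer integument (log2 fold change 1.34 ± 0.89, adjusted p = 0.63). For the first of these the layers were at like levels, and for the last they did not overlap. With 1 array left out, calls ended for PIP2-9 without epidermis replicate 1 (adjusted p = 0.075, log2 fold change -4.26 to -2.90 over the 4 left-out arrays), PIP2-2 without epidermis replicate 1 or either outer integument replicate (adjusted p = 0.10 to 0.32, log2 fold change -2.73 to -1.12 over the 4 left-out arrays) and PIP1-10 without any 1 of the 4 arrays (adjusted p = 0.14 to 0.26). The log2 fold change ran from -4.46 to -2.75 for PIP2-6, from -4.44 to -3.03 for N-26 and from 3.32 to 4.98 for NIP1-8. Under scaling to the hybridization controls 2 of the 6 aquaporin calls remained, those of PIP2-6 and N-26, and the others were lost, for NIP1-8, PIP2-9, PIP2-2 and PIP1-10 (adjusted p = 0.087 to 1.0).

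**Figure D3:**
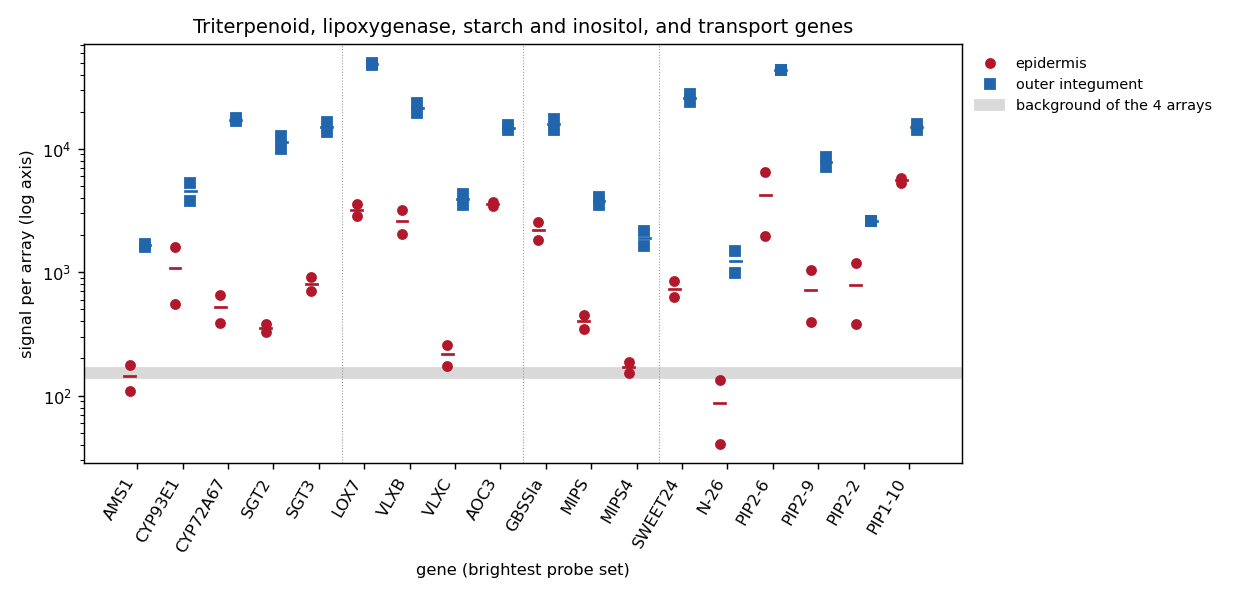
Signal on each of the 4 arrays (vertical log axis) for triterpenoid, lipoxygenase and jasmonate, starch and inositol phosphate, and transport genes, separated by dotted lines, with epidermis arrays as red circles, outer integument arrays as blue squares, short lines for the mean of 2 arrays and a grey band for background. The 18 genes shown are the members of these groups called lower in the epidermis, and CYP93E1, which was not called. In each both outer integument arrays lie above both epidermis arrays, which that choice fixed for the called genes. Members that differed the other way, such as NIP1-8, are not shown.

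Further genes were called lower in the epidermis. KTI-3, a Kunitz trypsin inhibitor, had 586 and 402 in epidermis, against 5929 and 4942 in outer integument (10.8-fold lower, log2 fold change -3.44 ± 0.75, adjusted p = 0.0087). FAD3C, the desaturase that makes linolenic acid, had 193 and 38.8 in epidermis, against 1434 and 1299.8 in outer integument (12.9-fold lower, log2 fold change -3.69 ± 0.83, adjusted p = 0.011), far below its inner integument level of 35925. CYP90A15, a P450 of brassinosteroid synthesis, had 626 and 641 in epidermis, against 2054 and 1601 in outer integument (2.82-fold lower, log2 fold change -1.49 ± 0.40, adjusted p = 0.035), and CYP97C10, a P450 of carotenoid hydroxylation, had 658 and 981 in epidermis, against 4146 and 4738 in outer integument (5.43-fold lower, log2 fold change -2.44 ± 0.63, adjusted p = 0.027). These 2 differences were small beside those above. CKX3, a cytokinin oxidase that degrades the hormone, had 2443 and 1708 in epidermis, against 16853 and 16722 in outer integument (8.16-fold lower, log2 fold change -3.03 ± 0.76, adjusted p = 0.022). PSK3, a precursor of the growth peptide phytosulfokine, had 6196 and 8765 in epidermis, against 34452 and 37385 in outer integument (4.86-fold lower, log2 fold change -2.28 ± 0.39, adjusted p = 0.00095). ASP1, DRR1, GH, SC-04, PIB1 and SRC1 were called as well. ASP1 was the brightest, at 1633 and 1926 in epidermis, against 32189.6 and 46694 in outer integument (21.7-fold lower, log2 fold change -4.44 ± 0.71, adjusted p = 0.00052). DRR1 had 259.8 and 47.0 in epidermis, against 5129 and 2956 in outer integument (29.7-fold lower, log2 fold change -4.89 ± 0.96, adjusted p = 0.0036). GH had 179.7 and 59.9 in epidermis, against 2791 and 2728 in outer integument (22.8-fold lower, log2 fold change -4.51 ± 0.82, adjusted p = 0.0018), and SC-04 had 120.2 and 111 in epidermis, against 2049 and 3237 in outer integument (at least 14.4-fold lower, log2 fold change -4.30 ± 0.59, adjusted p = 0.00011). In FAD3C, DRR1 and GH 1 epidermis array was above background, and in SC-04 and PIB1 none. PIB1 had 55.5 and 36.2 in epidermis, against 1091 and 1208 in outer integument (at least 6.47-fold lower, log2 fold change -4.25 ± 0.90, adjusted p = 0.0064), and SRC1 had 1324 and 1504 in epidermis, against 8929.6 and 8869 in outer integument (6.25-fold lower, log2 fold change -2.64 ± 0.41, adjusted p = 0.00037), while another probe set of SRC1 was not called (-2.10, adjusted p = 0.42). In this set calls ended, with 1 array left out, for KTI-3 without epidermis replicate 2 or either outer integument replicate (adjusted p = 0.065 to 0.099), FAD3C without epidermis replicate 2 or either outer integument replicate (adjusted p = 0.079 to 0.20, log2 fold change -4.66 to -2.72 over the 4 left-out arrays), CYP90A15 without any 1 of the 4 arrays (adjusted p = 0.13 to 0.33), CYP97C10 without any 1 of the 4 arrays (adjusted p = 0.083 to 0.24), CKX3 without any 1 of the 4 arrays (adjusted p = 0.098 to 0.18), DRR1 without epidermis replicate 2 or outer integument replicate 1 (adjusted p = 0.070 to 0.092, log2 fold change -5.96 to -3.83 over the 4 left-out arrays) and PIB1 without epidermis replicate 2 or either outer integument replicate (adjusted p = 0.061 to 0.072). The log2 fold change of GH was -5.19 or -3.83 without 1 epidermis array. Scaling to the hybridization controls ended the calls of KTI-3, FAD3C, CYP90A15, CYP97C10, CKX3, PSK3 and SRC1 (adjusted p = 0.082 to 1.0) and left those of ASP1, DRR1, GH, SC-04 and PIB1.

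Other groups held no called gene in either direction, against 9.46% called over the 772 genes with a symbol. In groups this small, few calls or none are near that share. The groups were 12 genes for cyclophilins, 17 for peroxidases and oxidative enzymes, 10 for heat shock proteins and folding, 14 for photosynthesis, 18 for seed maturation, 6 for nitrogen, 7 for sulphur, 12 for phosphate, 8 for ferritin and metal transport, 9 for receptor kinases, 9 for auxin, 13 for calmodulins and 14-3-3 proteins, and 8 for defence. In the metal group all 8 changes were negative, the largest being that of DMT1, a metal transporter gene, with 756 and 775 in epidermis, against 2943 and 2349.5 in outer integument (log2 fold change -1.76 ± 0.60, adjusted p = 0.12). ELIP, an early light-induced protein gene of the photosynthesis group, had 6038 and 5185 in epidermis, against 1466 and 1532 in outer integument (log2 fold change 1.89 ± 0.70, adjusted p = 0.17). Of the maturation genes PM16 had 14.8 and 14.8 in epidermis, against 103 and 115 in outer integument, all below background, so no fold is given. HSP23.9, a small heat shock protein gene, had 1909 and 620.0 in epidermis, against 4127 and 2920.0 in outer integument (adjusted p = 0.68). The auxin-regulated gene ADR11 had 1507 and 4617 in epidermis, against 11610.5 and 11995 in outer integument (log2 fold change -2.15 ± 0.90, adjusted p = 0.27). SARK, a receptor kinase gene, had 762 and 813 in epidermis, against 69.3 and 263 in outer integument (adjusted p = 0.35), and EDS1-2, named for a defence regulator, had 709.6 and 364 in epidermis, against 301 and 9.7 in outer integument (log2 fold change 2.54 ± 1.20, adjusted p = 0.37). SCAM-4, a calmodulin gene, had 943 and 473 in epidermis, against 93.0 and 204 in outer integument (adjusted p = 0.15), and GER2, named as a germin-like gene, had 215 and 387 in epidermis, against 14.7 and 111 in outer integument (adjusted p = 0.17). The largest changes of the cyclophilin, phosphate, nitrogen and sulphur groups were those of CYP17 (-0.80 ± 0.56), PHT1-8 (1.38 ± 0.87), GS1-GAMMA (-1.35 ± 0.79) and OAS-TL2 (-1.25 ± 0.87), none with an adjusted p below 0.55. Leaving out 1 array moved 8 of the uncalled changes named here by over 1.5-fold, with log2 fold changes of 0.73 to 4.35 for EDS1-2, -2.96 to -1.35 for ADR11, -2.46 to -0.86 for HSP23.9, 1.53 to 3.23 for SARK, 1.27 to 3.31 for GER2, 0.75 to 2.00 for PHT1-8, -2.06 to -0.44 for OAS-TL2 and -3.11 to 0.42 for GS1-GAMMA. A p that misses the threshold with 2 arrays a layer does not show that the layers were alike.

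**Figure D4:**
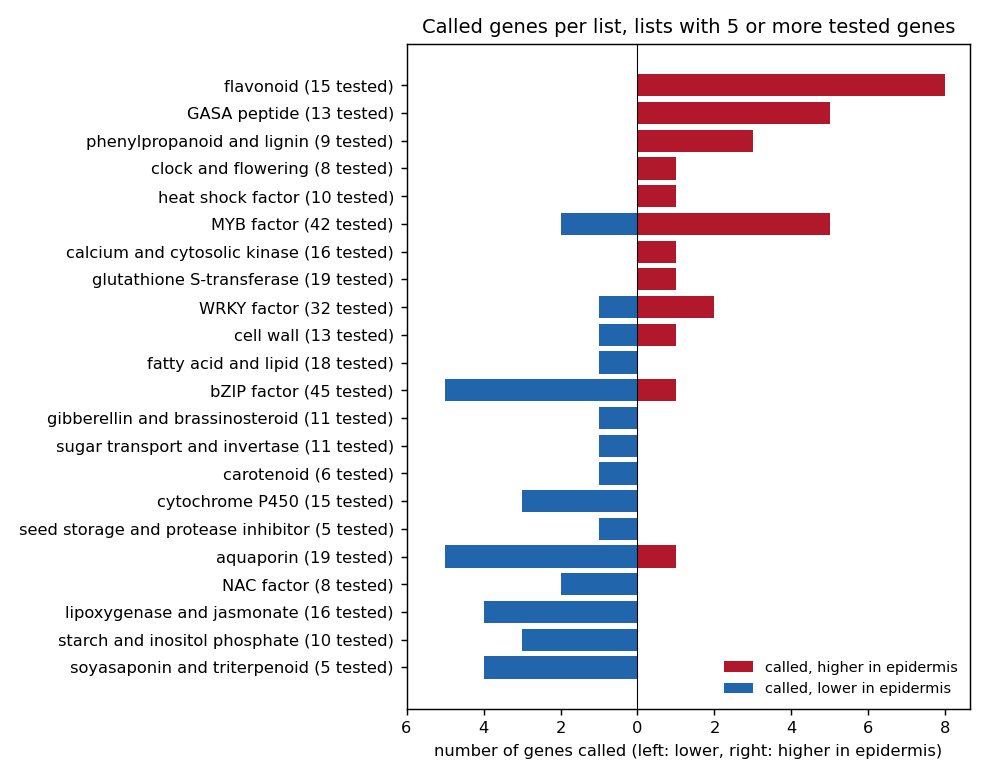
Number of genes called higher (red, to the right) and lower (blue, to the left) in epidermis for the gene groups with at least 5 tested genes and at least 1 call, with the number tested in brackets. Flavonoid synthesis has 8 genes higher and none lower, and soyasaponin and triterpenoid synthesis 4 lower and none higher. The latter group reached 5 tested genes only with AMS1, which was added after its values were seen. The starch and inositol phosphate list was also put together after values were seen.

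Both layers were placed among the other captured compartments. Of the 510 probe sets called higher in the epidermis, 253 had their highest mean of all 8 compartments there, 104 in the suspensor, 62 in the endothelium, 36 in the hilum, 27 in the embryo proper, 14 in the endosperm and 14 in the inner integument. Of the 544 called lower, 301 peaked in the outer integument, 127 in the inner integument, 41 in the suspensor and 18 to 21 in each of the embryo proper, endosperm and endothelium, and 15 in the hilum. The choice of the probe sets by these 2 layers shaped both counts, which are a description. High signals of several flavonoid genes were also found in the hilum, the scar where the seed joins the pod. UGT78K1 was an exception, with a mean of 120.9 there, against 530 in the epidermis and 6430 in the suspensor. Other compartments had high means too, such as 24827 for F3H in the endothelium and 7945 for CHI2-A in the suspensor. ANS2 averaged 33519.8 ± 1517 in the epidermis, 25297 ± 3117 in the hilum and 5747 ± 6718 in the endothelium, against 507 ± 499 in the inner and 503 ± 122 in the outer integument (SD, n = 2 each). ANR1 averaged more in the hilum (16146 ± 4662) than in the epidermis (5317 ± 1592), whereas DFR1 averaged less there (5563 ± 2250.2, and 22473 ± 1408 in the epidermis; SD, n = 2 each). The 2 endothelium arrays differed widely in these genes, with 997 and 10498 for ANS2.

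Not every gene of the epidermis was shared with the hilum. ACS1 had a mean of 3135 in the epidermis, 2617 in the suspensor and 1362 in the endothelium, against 2.2 in the hilum. SSH2 averaged 6199 ± 2116 in the epidermis (SD, n = 2) and at most 247 in any other captured compartment, and BZIP48 averaged 1089.8 ± 187 (SD, n = 2) and at most 100.5. Over all tested probe sets the hilum was nearer to the epidermis than to the outer integument in 49.98% and the inner integument in 44.2%. Among those called higher in the epidermis these shares were 58.4% and 15.1%, and among those called lower 70.2% and 42.7%. The endothelium was nearer to the epidermis in 48.4% of all, 51.6% of those higher and 62.7% of those lower. The called probe sets were chosen by their difference between the layers, which shaped these shares too, so they are a description.

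**Figure D5:**
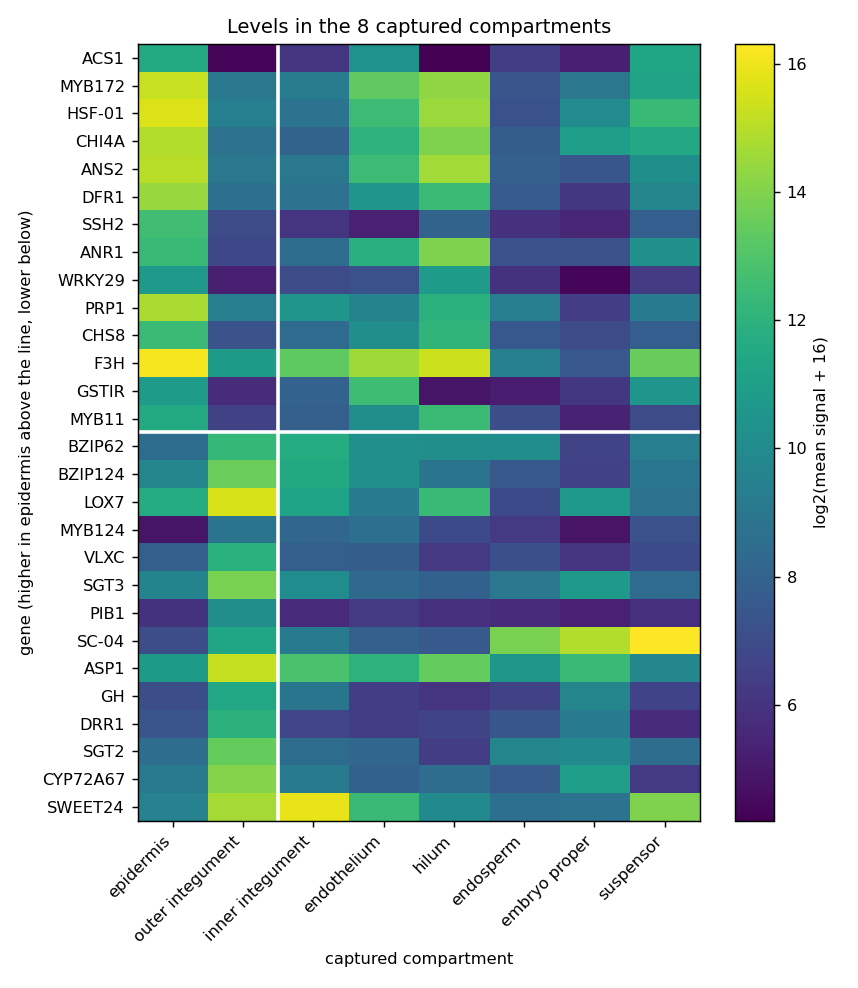
Mean level of the 14 genes with the largest log2 fold change higher in epidermis (above the white line) and the 14 with the largest lower (below it), as colour on the scale log2(mean signal + 16), in the 8 captured compartments. Flavonoid genes such as ANS2 and F3H are bright in the epidermis and hilum, SWEET24 is bright in the outer and inner integument, and SC-04 is brightest in the suspensor.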

How the data were processed

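Transcript levels were read from the deposited series table, which holds 1 intensity per probe set and array on a linear scale. The submitters' processing notes name GCOS 1.3. How the probes of a set were summarised is not given in these sources. The deposited intensities have a trimmed mean near 500.1 on every array (2% left out at each end) and were not scaled again, so levels are relative to each array's total. Their number, 2 arrays a layer, limits the precision, and an array gives no read depth.

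Background was the 95th percentile of 23350 pathogen probe sets per array, which may cross-react with soybean RNA. The deposited intensities were taken to log2(signal + 16), so folds understate the change of dim genes. A model of the 8 captured compartments (19 arrays, 11 residual degrees of freedom) was fitted with lmFit and a trended eBayes (limma 3.58.1, R 4.3.3), and epidermis minus outer integument was tested 2-sided with Benjamini-Hochberg adjustment over 22742 probe sets. A log2 fold change is given with its standard error (2 arrays a layer). Calls needed adjusted p under 0.05 with a 2-fold or larger change. Where the dimmer layer was above background on neither array, a fold is "at least" the brighter mean over the dimmer arrays' background, and its fitted log2 fold change is no measure of size. Where 1 of the 2 arrays was, the measured fold is given and rests in part on a signal below background. The procedure was tested on simulated data.

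The platform annotation gave 1 gene to 8677 of the soybean probe sets, several to 370 and none to 28546. Of 6031 genes 6010 were found in the RefSeq table of Glycine_max_v4.0, used for names only, and 1005 had a symbol beyond a locus number. Genes were read through their brightest tested probe set. Probe sets whose ID ends in _s_at or _x_at may read several related transcripts. They include those of C4H, CHI4A, F3H, LOX7, GASA14, GASA33, PIP1-10, PIP2-6 and MIPS4.

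Named genes were the 14 called genes with the largest log2 fold change in each direction, up to 4 called members per list by adjusted p, the largest change in a list with no call, and 2 unnamed probe sets a direction. Other called members and uncalled members were added after their values were seen to fill out a list. The comparison, the members and the gene lists were chosen with earlier results of these data known. The locus-number genes carried no product description and are not described. Alternatives were other offsets, filters, scalings, sets of arrays, weights and left-out arrays. No sequence was used here.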

Additional observations from a re-analysis of the deposited data

How the results depend on the processing

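With 2 arrays a layer, the number of calls depended most on how the spread was estimated and on scaling. The main count was 1054, 510 higher and 544 lower in the epidermis. Left-out arrays gave 484 to 607 calls, 249 to 303 higher and 210 to 304 lower. Those fits have fewer arrays and so wider standard errors. The spread taken from only the 4 arrays gave 2362 (1047 higher and 1315 lower), and array weights gave 2625 (1160 and 1465). Spread from the 10 seed coat arrays gave 1534, with 865 lower, and leaving out the 2 arrays of highest background gave 1575, with 863 lower. Scaling to equal hybridization controls, an alternative chosen after seeing the data, gave 353 (172 higher and 181 lower) and moved the median log2 fold change of all probe sets to -0.39. These controls varied several-fold within some groups of arrays, such as 10625 to 82613 in the suspensor, and the cause was not tested. In the compared layers they were 18985 and 17516 in the epidermis and 12252 and 15284 in the outer integument. The scaling covered all 19 captured arrays, whose spread enters every test. A call lost under it thus does not show that the difference was gone. All 91 genes followed kept their sign under it, and C4H, lost only there, kept a log2 fold change of 3.13 or more. The share of calls higher in the epidermis was 48.4% in the main result and 57.5% and 56.4% without an outer integument array. Offsets of 1 and 64 gave 861 and 1357 calls, quantile normalization 1056, equal medians 1043, no filter 921 and no trend 985.

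A fit with the replicate number as a block, within the 10 seed coat arrays, gave 1488 calls (835 lower), against 1534 without it. Deviations of same-numbered arrays correlated at -0.05 to 0.05 over 10 pairs of groups, which gave no sign of pairing. This cannot decide whether same-numbered samples shared plants, since separate capture and amplification could hide it and the labels do not say. Of the 73 called genes with a symbol, 24 stayed called under all 19 alternatives, 35 were lost when 1 array was left out, 14 were lost only under the scaling to hybridization controls, and none changed direction. Of the genes not called, GS1-GAMMA turned to a log2 fold change of 0.42 without epidermis replicate 2 and to -3.11 (adjusted p = 0.020) without epidermis replicate 1. Its epidermis signals were 713 and 47.4. Signals near background limit the dim genes, for which only a bound was given.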

Other observations

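Large changes also lay in probe sets with no gene name in the annotation used here. GmaAffx.74402.1.A1_at had signals of 18691 and 22050.1 in epidermis, against 51.0 and 113 in outer integument, at least 126-fold higher (log2 fold change 7.77 ± 0.98). GmaAffx.19742.1.A1_at had 60919.8 and 50326 in epidermis, against 341 and 217 in outer integument (7.59 ± 1.12). On the other side GmaAffx.3723.1.A1_at had 78.6 and 642 in epidermis, against 38403 and 48621 in outer integument (-7.44 ± 1.11), with 1 epidermis array below background, and Gma.13613.1.A1_at had 8.2 and 9.1 in epidermis, against 3946 and 3510.1 in outer integument, at least 20.8-fold lower (-7.24 ± 0.80). Of the 1054 called probe sets, 655 had no gene or several in this annotation, so the named genes describe the smaller share of the difference between the layers.

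The 35 other probe sets of the 73 called genes all had the sign of the brightest one, and 18 of them were called.

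Several genes named above were also bright in leaf, which entered no test. GASA6 averaged 26307 ± 3077 in leaf and 24938 ± 357 in whole seed, and LOX7 averaged 15791 ± 5622 in leaf and 23764 ± 833 in whole seed (SD, n = 2 each). ANS2 and DFR1 were dim in leaf, at 195 ± 23.8 and 61.2 ± 9.1, and bright in whole seed, at 18554 ± 1941 and 14137 ± 1139 (SD, n = 2 each).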
